A study of Mus musculus with 15 samples.

Results

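The 9 genes Stat2, Irf9, Irf7, Ifit3, Ifit1, Isg15, Bst2, Ifitm3 and Oasl2 are commonly used readouts of interferon signalling, and they were followed across 4 genotype groups of mouse retinal pigment epithelium (RPE). They were chosen by symbol, and all 9 were found among the 46078 genes of the deposited count table. The question put to them was whether loss of Mertk raises innate immune transcripts in the RPE. Of the 9, 7 had enough counts to be tested between Mertk KO and Mertk WT, and 0 passed the threshold of an adjusted p under 0.05 (edgeR). Of all 13447 genes tested, 0.223% passed it. Bst2 came closest, at 15.8 ± 1.99 CPM (counts scaled to library size, SD, n = 4) in Mertk KO against 9.36 ± 2.68 CPM (n = 4) in Mertk WT. Ifit3, Bst2 and Stat2 were expressed in every library, whereas Isg15, Ifit1 and Oasl2 averaged 0.322, 0.879 and 0.222 CPM over the 15 libraries.

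Type I interferons signal through a cell surface receptor and the kinases Jak1 and Tyk2, which phosphorylate Stat2. A complex that holds Stat2 and Irf9 then binds interferon-stimulated response elements in the promoters of its target genes. Irf7 is both a target and a factor that drives further interferon transcription. The RPE is the pigmented epithelium behind the photoreceptors, which engulfs their shed outer segments through the receptor tyrosine kinase Mertk. In phagocytes Mertk, Axl and Tyro3 are also known to restrain innate immune signalling, partly through the suppressors Socs1 and Socs3.

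RNA was taken at 2 hours after light onset from RPE of female mice at postnatal day 14, in 15 libraries. All carry a strain label that mixes c57Bl/6J with B6;129-Mertktm1Grl/J, which names the Mertk knockout line, and the sources used here do not give how far any one mouse was backcrossed. The groups are 4 Mertk KO libraries, 4 Mertk WT libraries, 3 libraries of Mertk WT mice positive for a Bai1 transgene (Bai1 Tg pos) and 4 of Mertk WT mice negative for it (Bai1 Tg neg). Bai1, gene symbol Adgrb1, is a phosphatidylserine receptor, and the sources used here do not name the promoter that drives the transgene. No label says that replicates are separate animals, so a p-value here reflects library-to-library spread, some of which may be technical.

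Total counts per library ran from 9591129 to 20024507, and 3 counts, taken as the detection floor, stand for 0.15 to 0.313 CPM. This floor accounts for counting error alone, as the labels name no molecular identifiers. Mertk fell in Mertk KO, to 177 ± 18.3 CPM from 246 ± 11.1 CPM (edgeR, adjusted p = 0.0461), a call that was lost when any 1 of the 8 libraries was left out (adjusted p = 0.0546 to 0.228). These counts sum all exons, so they are a limited check of an allele that is still transcribed. Tyro3, another receptor of the family, fell to 57.5 ± 9.98 CPM from 206 ± 20.8 CPM (log2 fold change -1.84, SE 0.12, adjusted p = 2.65e-05). Mertk (128698956 to 128802894) and Tyro3 (119797733 to 119818104) both lie on chromosome 2, as did 18 of the 30 genes (60%) called between Mertk KO and Mertk WT, against 8.01% of all genes tested; none of the 7 interferon-stimulated genes tested lies there. Axl was at 4.34 ± 0.587 CPM in Mertk WT against 5.69 ± 2.07 CPM in Mertk KO (adjusted p = 0.905), with Gas6, a ligand of the family, at 210 ± 16.5 against 186 ± 27.7 CPM (adjusted p = 0.905). Adgrb1 stood between 167 and 170 CPM in Bai1 Tg pos, and the first 3 Bai1 Tg neg libraries had at most 0.143 CPM. With 2875 Adgrb1 counts (143.5 CPM), the library labelled Bai1 Tg neg 4 goes against its label, so the 2 comparisons that use it are also given without it, and Bai1 Tg neg is a label here rather than a statement that all 4 libraries lack the transgene.

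RPE markers were abundant, with Ttr and Rgr, transcripts typical of this epithelium, averaging 24270 and 13020 CPM. Of 19 microglia and macrophage markers, 2 reached 1 CPM (Csf1r and Cd68), while Ptprc, the pan-leukocyte marker, had 1 count in Mertk WT and none in the other groups. Aif1 had 2 counts in Mertk WT and 0 in Mertk KO. Other markers of the list had more counts in the Mertk libraries. Cx3cr1 had 13 in Mertk WT and 25 in Mertk KO, C1qa 18 and 26, and Itgam 13 and 7. In Bai1 Tg neg Cx3cr1, C1qa and Itgam each had 0 counts. The part of such cells in the values below was not tested. None of 13 markers of T, B, NK and dendritic cells reached 1 CPM in any group. Rod transcripts were present and varied, with 16 rod markers summing to 957 to 3886 CPM in Mertk WT, 1057 to 1715 in Mertk KO, 229 to 503 in Bai1 Tg neg and 277 to 840.4 in Bai1 Tg pos. In bulk RNA a smaller number of cells of a type and less RNA per cell cannot be told apart.

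The promoters were read for the letters that the complex holding Stat2 and Irf9 is known to bind. The windows of the RefSeq table (GRCm38.p6), which run from 250 bases before to 50 bases after each gene's start, were searched on both strands for GAAA, any 2 bases and GAAA again, the core of an interferon-stimulated response element. A match was found in 6 of the 9 genes (66.7%), against 3.99% of all 27025 genes with a window. A match is a description of the letters, not of binding. The 200 bases before the start of 4 of them are printed 5′ to 3′ along the gene's strand, since these 4 all hold the core and yet differ widely in level; capitals mark the matches, which read as the reverse complement in Ifit3 and Ifit1.
Ifit3, chr19:34583329-34583528, plus strand: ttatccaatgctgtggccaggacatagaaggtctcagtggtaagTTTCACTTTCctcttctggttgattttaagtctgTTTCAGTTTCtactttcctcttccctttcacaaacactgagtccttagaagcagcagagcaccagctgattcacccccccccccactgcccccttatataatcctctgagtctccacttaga
Ifit1, chr19:34640689-34640888, plus strand: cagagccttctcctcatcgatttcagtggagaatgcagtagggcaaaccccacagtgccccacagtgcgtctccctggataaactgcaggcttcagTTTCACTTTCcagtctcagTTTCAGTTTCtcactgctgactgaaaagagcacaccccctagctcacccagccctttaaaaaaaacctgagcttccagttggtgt
Isg15, chr4:156200819-156201018, minus strand: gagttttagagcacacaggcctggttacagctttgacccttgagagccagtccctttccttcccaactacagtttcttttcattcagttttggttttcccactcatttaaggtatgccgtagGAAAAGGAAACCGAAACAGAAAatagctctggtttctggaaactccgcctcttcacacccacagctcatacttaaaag
Bst2, chr8:71537473-71537672, minus strand: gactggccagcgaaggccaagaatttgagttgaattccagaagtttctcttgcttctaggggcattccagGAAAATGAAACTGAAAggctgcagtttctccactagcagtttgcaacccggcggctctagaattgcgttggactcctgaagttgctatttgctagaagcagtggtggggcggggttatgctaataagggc

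Counted from the start base as 0, the matches begin at -156 and -122 in Ifit3, at -104 and -85 in Ifit1, at -130 and -124 in Bst2, and at -78, -72 and -66 in Isg15, where 3 overlapping copies form 1 run. Stat2 has a single match at -222, and Ifitm3 has matches at 2 and 19, just after its start. No match was found in the windows of Irf7, Irf9 or Oasl2, which says only that these letters are not in those windows. Among 50 other interferon-stimulated effectors with a window, 23 (46%) held the core. Of those 23, 10 (43.5%) averaged at least 1 CPM, and of the 27 without it 13 (48.1%) did, so the expressed share of this list was no higher with the core than without it.

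Levels were compared between genes as CPM per kb of exon, averaged over the 15 libraries. The length is the summed exon length in the deposited count table, 4397 bases for Stat2 and 5386 for Irf9. It need not be the length of the transcript present, so an order on this scale depends on that length. The order was Ifit3 (25.7), Bst2 (16.9), Stat2 (12.3), Irf9 (4.59), Ifitm3 (2.82), Irf7 (1.18), Isg15 (0.426), Ifit1 (0.331) and Oasl2 (0.0348). Against 14520 genes tested over all libraries, Ifit3 stood above 86.5% of genes on this scale, Stat2 above 72.5%, Irf7 above 24.3% and Oasl2 above 0.1%. Only 1 pair of neighbours in this order, Stat2 and Irf9, did not overlap over the 15 libraries, with Stat2 at 9.556 to 15.7 and Irf9 at 2.98 to 5.61 CPM per kb. Ifit3 was above Bst2 in 14 of 15 libraries and Bst2 above Stat2 in 12 of 15, while Isg15 was above Ifit1 in 6 of 15. Within single gene families, whose other members are named here after their values were seen, levels were far apart. On chromosome 19, Ifit3 and Ifit3b averaged 25.7 and 14.2 CPM per kb, Ifit2 1.78 and Ifit1 0.331, and Ifit3 was above Ifit1 in 15 of 15 libraries. On chromosome 7, Ifitm2 averaged 91.3 CPM per kb against 2.82 for Ifitm3 and 0.481 for Ifitm1, with Ifitm2 above Ifitm3 in 15 of 15 libraries. The Oas genes, which sense double-stranded RNA, were all low, from 0.529 CPM per kb for Oas1b down to 1 count in all for Oas3.

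**Figure D1:**
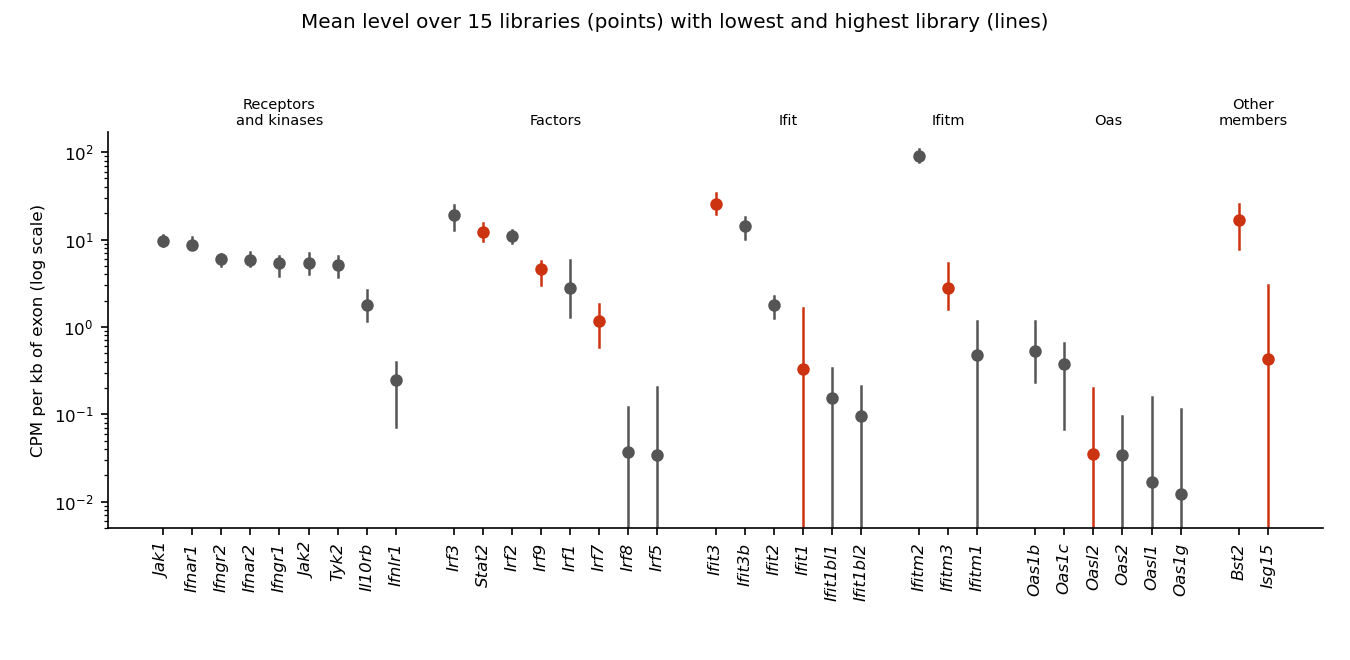
Mean level over the 15 libraries as CPM per kb of exon on a log scale (points), with a line from the lowest to the highest library; the genes studied here are in red, other genes of the pathway in grey, and genes averaging under 0.01 CPM per kb are left out. Lines that reach the bottom of the axis belong to genes with no counts in at least 1 library; Ifit3 and Ifit1 lie at 25.7 and 0.331 although both are Ifit genes.

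The 3 transcription factors were detected in every library of every group. Stat2 (chromosome 10, 128270576 to 128292849), the subunit that gives the complex its activating domain, was at 56.6, 42.0, 51.6 and 59.9 CPM in Mertk WT and at 62.3, 61.3, 46.0 and 68.9 CPM in Mertk KO. The highest values were in Mertk KO, but Mertk KO 3 lay below 3 of the 4 Mertk WT libraries and the groups overlapped. The fitted difference was 0.18 on the log2 scale (SE 0.13, adjusted p = 0.91), with a 95% interval of 0.93 to 1.39 in fold. Irf9 (chromosome 14, 55603571 to 55610030), the DNA-binding subunit, was at 24.7, 22.9, 25.3 and 26.6 CPM in Mertk WT and at 26.5, 26.6, 16.1 and 29.3 CPM in Mertk KO. Mertk KO 3 was the lowest of these 8 libraries, while the other 3 Mertk KO libraries lay close to the highest Mertk WT library or above it. Its fitted log2 difference was -0.02 (SE 0.16, adjusted p = 0.991), with an interval of 0.78 to 1.26 in fold. Irf9 shares 123 exon bases with Rnf31, the gene beside it, on the same strand.

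Irf7 (chromosome 7, 141262706 to 141266481), the factor that amplifies the response, was lower, at 4.39, 3.07, 2.67 and 4.70 CPM in Mertk WT and 4.94, 4.63, 3.46 and 2.66 CPM in Mertk KO. The 2 groups covered nearly the same range, and the fitted log2 difference was 0.09 (SE 0.28, adjusted p = 0.974). The interval of 0.70 to 1.62 in fold still includes sizeable changes either way. Irf7 shares 45 exon bases with Phrf1 on the opposite strand, and the counts carry no strand.

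Among the effectors, Bst2 (chromosome 8, 71534264 to 71537437) encodes tetherin, a membrane protein that holds budding enveloped virus particles at the cell surface. It was at 12.6, 6.025, 9.66 and 9.19 CPM in Mertk WT and at 13.02, 17.1, 17.4 and 15.7 CPM in Mertk KO. Every Mertk KO library lay above every Mertk WT library, the nearest pair being Mertk KO 1 and Mertk WT 1. The fitted fold was 1.69 (95% interval 1.25 to 2.27; log2 0.75, SE 0.20), with an unadjusted p of 0.00221 and an adjusted p of 0.338 by edgeR. Over the 16 alternative fits the log2 difference stayed between 0.58 and 0.94 and the adjusted p between 0.0324 and 0.746. It was past the threshold in 1 of them, the fit with no filter on low counts, and missed it in DESeq2 (adjusted p = 0.0677).

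Bst2 was at 18.1, 10.1, 7.84 and 15.0 CPM in Bai1 Tg neg and at 14.5, 8.26 and 19.6 CPM in Bai1 Tg pos, all 7 libraries being labelled Mertk WT. They covered the range of the Mertk KO libraries and that of all Mertk WT libraries but the lowest. Within the libraries whose first tag number is 17 (3 of each genotype), Bst2 was at 9.42 ± 3.28 CPM in Mertk WT against 15.8 ± 2.43 CPM in Mertk KO, again without overlap, as in 4.19% of all genes in that direction, and the single pair with tag number 21 was at 9.19 and 15.7 CPM. With the summed rod marker level as a covariate the log2 difference was 0.64 (adjusted p = 0.325). The 10 vascular endothelium markers summed to 12.99 to 23.3 CPM in Mertk WT, where 3 reached 1 CPM, and to 7.85 to 11.5 CPM in Mertk KO, where 2 did; no marker of that list was at 0 counts in either group. Their part in the Bst2 values was not tested.

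Across the 7 of the 9 genes that passed the filter on low counts, 0 were called by edgeR at an adjusted p under 0.05, where 0.223% of the 13447 genes tested were called (30 genes, 8 higher and 22 lower). DESeq2 called 0 as well, where it called 0.551% of genes, and the fit with no filter called 1, Bst2 (adjusted p = 0.0324), where it called 0.291% of genes. At an unadjusted p under 0.05 there was 1 of 7 (Bst2), against 5.58% of all genes. Bst2 was also the 1 gene of the 7 whose Mertk KO libraries all lay above Mertk WT, which held for 1.61% of all genes tested. The median log2 difference was 0.08 over the 7 genes, 5 above 0 and 2 below, and -0.001 over all genes.

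**Figure D2:**
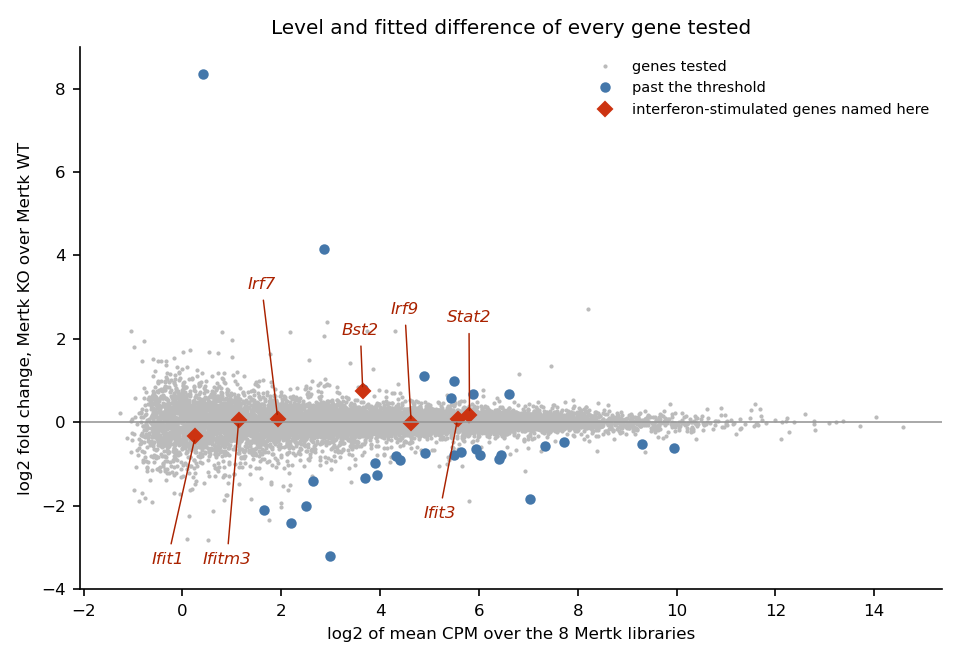
Each point is 1 of the 13447 genes tested, placed by the log2 of its mean CPM over the 8 Mertk libraries and by its fitted log2 difference, Mertk KO over Mertk WT; blue points passed the threshold and red diamonds are the 7 tested interferon-stimulated genes. Bst2 lies at 0.75, and Stat2, Irf9, Irf7, Ifit3 and Ifitm3 lie between -0.02 and 0.18 within the cloud of other genes.

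Ifit3 (chromosome 19, 34583531 to 34588731), a tetratricopeptide repeat protein that joins other Ifit proteins on RNA and the most abundant of the 9 per kb, was at 42.8, 45.4, 39.6 and 56.9 CPM in Mertk WT and at 60.0, 43.2, 41.2 and 50.6 CPM in Mertk KO. The groups interleaved, with 1 high library in each. The fitted log2 difference was 0.08 (SE 0.14, adjusted p = 0.945), and the interval of 0.86 to 1.30 in fold was the narrowest among the effectors. The transcript is 97.824% identical to that of Ifit3b over 1700 bases, so reads could be split between them. With the counts of Ifit3 and Ifit3b summed, an alternative added after the values were seen, the difference was 0.01 (adjusted p = 0.992).

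Ifitm3 (chromosome 7, 141009586 to 141010770), which blocks virus entry from endosomes, was low, at 1.69, 1.99, 1.73 and 3.34 CPM in Mertk WT and at 1.91, 1.21, 2.15 and 3.66 CPM in Mertk KO. The highest library of each group was replicate 4, the one with tag number 21. The fitted log2 difference was 0.05 (SE 0.38, adjusted p = 0.989), with an interval of 0.58 to 1.83 in fold. Its sign turned with the rod marker level as a covariate (-0.11).

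Ifit1 (chromosome 19, 34640871 to 34650009), which binds viral RNA lacking a host cap, had 6, 10, 3 and 42 counts in Mertk WT and 30, 18, 10 and 9 in Mertk KO. A single library, Mertk WT 4, held 42 of the 61 Mertk WT counts and stood at 4.38 CPM, against 0.2 to 0.538 CPM in the other 3. The fitted log2 difference was -0.34 (SE 0.87, adjusted p = 0.965), and without Mertk WT 4 it was 1.37 (SE 0.59, adjusted p = 0.853). Among the libraries with tag number 17, Ifit1 was at 0.381 ± 0.170 CPM in Mertk WT against 1.16 ± 0.453 CPM in Mertk KO. These did not overlap, as in 4.19% of all genes in that direction. The Mertk WT values there rest on 6, 10 and 3 counts, close to the floor of 3 counts. The pair with tag number 21 was the other way round, at 4.38 and 0.531 CPM.

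Isg15 (chromosome 4, 156199424 to 156200818), a ubiquitin-like modifier, had 62 counts in all 15 libraries together and did not pass the filter in any comparison. Its counts were 4, 0, 0 and 2 in Mertk WT and 2, 1, 9 and 9 in Mertk KO. The groups overlapped, and in a fit without the filter the adjusted p was 0.791. Isg15 also has a transcript stretch that is 95.228% identical to the gene AC151275.1 over 482 bases, so these few counts are uncertain. Oasl2 (chromosome 5, 114896936 to 114912234), a relative of the oligoadenylate synthetases, had 46 counts in all and also stayed untested. It had 6, 6, 2 and 1 counts in Mertk WT and 4, 0, 2 and 0 in Mertk KO, with an adjusted p of 0.791 in the fit without the filter. A count of 0 allows up to 3 counts, so a difference in these genes within the floor was not detectable at this depth.

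**Figure D3:**
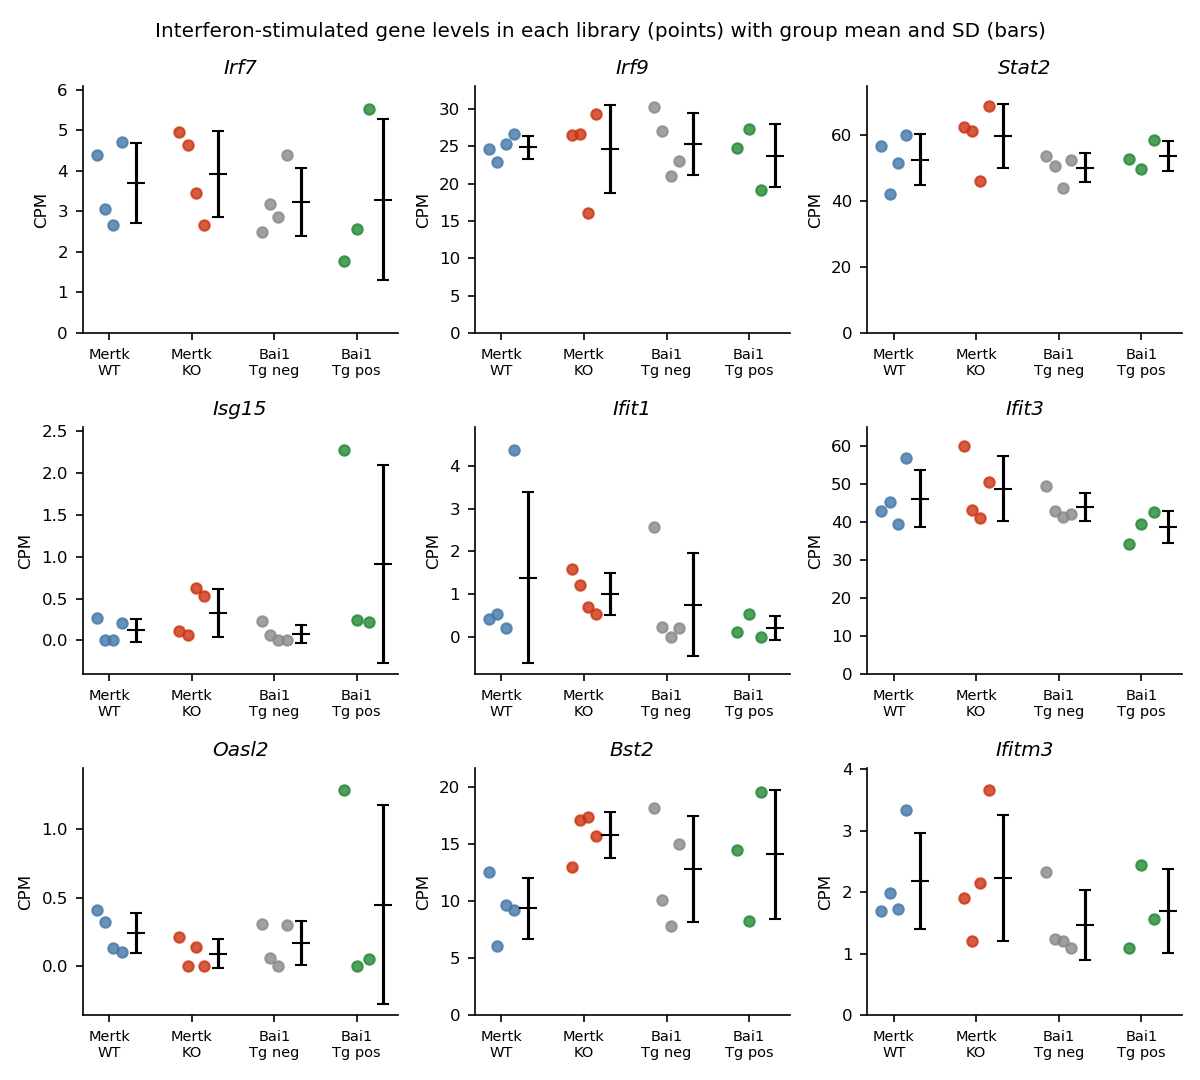
CPM of each gene in every library (points) of the 4 groups, with the group mean and SD to their right (bars); each panel has its own axis starting at or below 0. In Bst2 the 4 Mertk KO libraries, 13.02 to 17.4 CPM, lie above the 4 Mertk WT libraries, 6.025 to 12.6 CPM; in Isg15, Ifit1 and Oasl2 a single library sets the largest group mean.

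The second comparison asked whether the Bai1 transgene moved the same genes. Of 6 genes tested, 0 were called by edgeR, where 0.0144% of the 13855 genes tested were called (2 genes, both lower), and DESeq2 called 0, against 0.152% of genes. At an unadjusted p under 0.05 there were also 0 of 6, against 5.18% of all genes, and 0 of the 6 had groups that did not overlap, against 6.29%. Stat2 was at 52.7, 49.7 and 58.5 CPM in Bai1 Tg pos and at 53.7, 50.7, 43.9 and 52.4 CPM in Bai1 Tg neg (log2 difference 0.10, SE 0.10, adjusted p = 0.964). Ifit3 was at 34.3, 39.5 and 42.6 CPM in Bai1 Tg pos and at 49.5, 43.0, 41.3 and 42.0 CPM in Bai1 Tg neg. All 3 Bai1 Tg pos libraries lay below the Bai1 Tg neg mean but the groups overlapped, and the difference was -0.18 (SE 0.11, adjusted p = 0.958). Bst2 differed by 0.14 (SE 0.35, adjusted p = 0.987), with an interval of 0.64 to 1.90 in fold.

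The intervals of the remaining 3 tested genes all included 1 in fold. Over the 3 Bai1 Tg pos libraries Irf9 averaged 23.8 ± 4.19 CPM (SD), against 25.3 ± 4.12 CPM over the 4 labelled Bai1 Tg neg (26.1 ± 4.67 CPM without library 4), with 0.75 to 1.18 in fold. Irf7 was at 3.29 ± 1.98 against 3.23 ± 0.828 CPM (0.57 to 1.85 in fold), and Ifitm3 at 1.70 ± 0.684 against 1.47 ± 0.574 CPM (0.55 to 2.50 in fold). Without the library labelled Bai1 Tg neg 4 none of the 6 passed the threshold either, with log2 differences from -0.20 (Ifit3) to 0.23 (Bst2 and Irf7); the count over all genes was then 5 (0.0369%). At an unadjusted p under 0.05 there were again 0 of 6, against 4.35% of all genes, and 0 of 6 had groups that did not overlap, against 10.3%. DESeq2 without that library also called 0 of the 6, and its count over all genes is given in the last paragraph.

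The rarely detected genes were uneven among these 7 libraries. Isg15 had 23, 4 and 4 counts in Bai1 Tg pos and 3, 1, 0 and 0 in Bai1 Tg neg, so 1 library held 23 of the 31 Bai1 Tg pos counts. That library, Bai1 Tg pos 1, also held 13 of the 14 Oasl2 counts of its group (13, 0 and 1, against 4, 1, 0 and 6 in Bai1 Tg neg). It was low in Ifit1, with 1 count, and was the lowest of all 15 libraries in Irf7 (1.78 CPM), Ifit3 (34.3 CPM) and Ifitm3 (1.09 CPM). Ifit1 had 1, 9 and 0 counts in Bai1 Tg pos and 33, 4, 0 and 4 in Bai1 Tg neg. In the fit without the filter, Isg15 had an unadjusted p of 0.00784 and an adjusted p of 0.438, and without the library labelled Bai1 Tg neg 4 these were 0.0283 and 0.817.

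**Figure D4:**
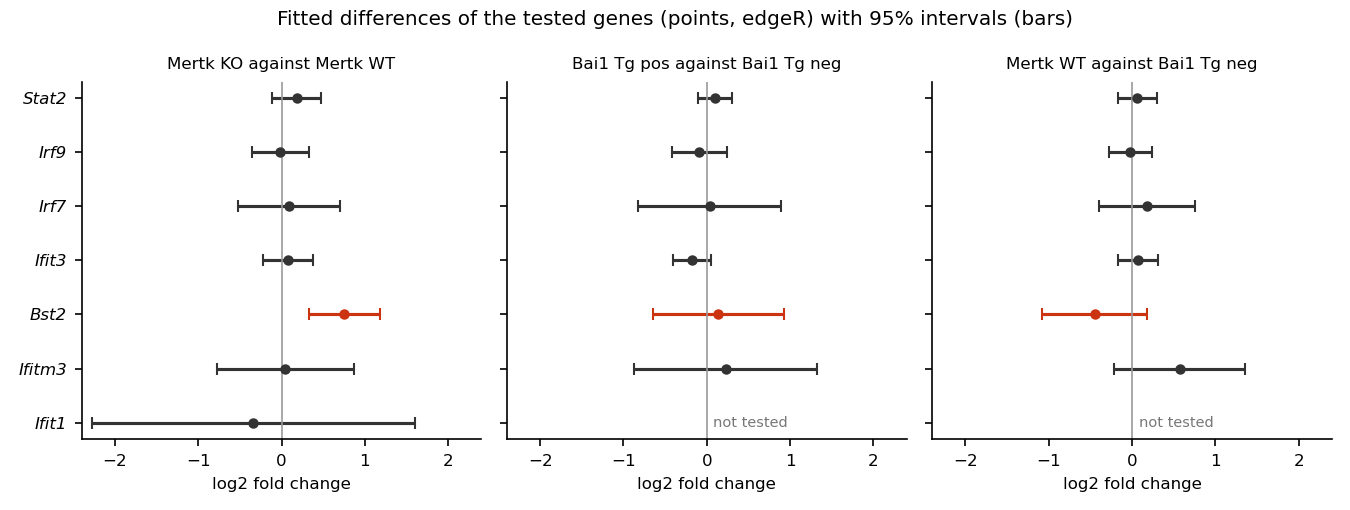
Fitted log2 differences by edgeR (points) with 95% intervals (bars) for the tested genes in the 3 comparisons, on a common axis; Ifit1 passed the filter in the Mertk comparison alone. The interval of Bst2 in Mertk KO against Mertk WT, 0.33 to 1.18, lies above 0, and every other interval spans 0.

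The 2 control groups, Mertk WT and Bai1 Tg neg, were also compared with each other; by its Adgrb1 level 1 of the Bai1 Tg neg libraries goes against its label. The 2 groups differ in tag number as well as in set, which cannot be told apart, and each is also the control of a comparison above. Of 6 genes tested, 0 were called by edgeR, where 0.431% of 13459 genes were called (58 genes, 44 higher and 14 lower), and DESeq2 called 0, against 1.64% of genes. At an unadjusted p under 0.05 there were 0 of 6, against 7.99% of all genes, and 0 of 6 had groups that did not overlap, against 5.74%. Bst2 had a log2 difference, Mertk WT over Bai1 Tg neg, of -0.45 (SE 0.28, adjusted p = 0.761), and Ifitm3 one of 0.57 (SE 0.37, adjusted p = 0.765). Stat2, Irf9, Irf7 and Ifit3 lay between -0.02 and 0.18. Without the library labelled Bai1 Tg neg 4 the 6 values ran from -0.36 (Bst2) to 0.45 (Ifitm3), none past the threshold by edgeR or DESeq2. The count over all genes was then 28 (0.204%) by edgeR, and that of DESeq2 is given in the last paragraph. There were 0 of 6 at an unadjusted p under 0.05, against 7.29% of all genes, and 0 of 6 without overlap, against 9.01%.

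The rest of the pathway was read from 8 lists of 174 genes. In Mertk KO against Mertk WT 88 of them were tested and 0 passed the threshold in either direction. At an unadjusted p under 0.05 there were 2 (Irf1 and B2m, both lower in Mertk KO), where 5.58% of all genes were. In Bai1 Tg pos against Bai1 Tg neg 90 were tested and 0 passed, with 8 at an unadjusted p under 0.05, against 5.18% of all genes. All 8 were among the 35 tested of the other interferon-stimulated effectors, 6 lower in Bai1 Tg pos (Ifi35, Cmpk2, Rsad2, Herc6, Zc3hav1 and Oas1b) and 2 higher (Ifi27 and Gbp3), each with an adjusted p of 0.948 by edgeR; they are named after their values were seen. Without the library labelled Bai1 Tg neg 4 it was 4 of 33 (Ifi35, Rsad2 and Herc6 lower, Gbp3 higher) and 6 of 88 over all lists, against 4.35% of all genes, and 0 passed. In that refit 16 of the 88 had groups that did not overlap, against 10.3% of all genes. In Mertk WT against Bai1 Tg neg 87 were tested and 0 passed, with 9 at an unadjusted p under 0.05, against 7.99% of all genes. Without that library 90 were tested and 1 passed by edgeR (Irf1), where 0.204% of all genes did, with 9 at an unadjusted p under 0.05, against 7.29%. Of the 90, 10 had groups that did not overlap, against 9.01% of all genes. DESeq2 called 0 in each of the first 2 comparisons. In the last it called 2 of 87, where it called 1.64% of all genes. These were Irf1 (adjusted p = 0.00899) and Nfkbiz (0.0315), both lower in Mertk WT. Without the library labelled Bai1 Tg neg 4 it again called 0 in the Bai1 comparison, and in the last it called Irf1 (1.25e-07) and Socs3 (0.00706), with Nfkbiz at 0.0772. The counts over all genes in these refits are given in the last paragraph.

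Of 20 interferon ligands, 18 had 0 counts in all 15 libraries, Ifnb1 and Ifna1 among them, and Ifnk and Ifnl2 averaged 0.0199 and 0.0158 CPM. All 9 receptor and kinase genes averaged at least 1 CPM. Jak1, which phosphorylates the receptor, was at 69.4 ± 4.77 CPM in Mertk KO against 71.4 ± 7.26 CPM in Mertk WT, and Ifnar1, a receptor chain, at 49.7 ± 4.03 and 48.3 ± 1.55 CPM.

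Of 5 other interferon transcription factors 3 were tested and 0 passed. Irf3, which starts interferon transcription, was at 67.0 ± 6.57 CPM in Mertk KO against 62.2 ± 16.6 CPM in Mertk WT, and Irf2, which competes with Irf1 at its sites, at 25.9 ± 2.67 and 27.0 ± 3.50 CPM. Of 19 nucleic acid sensors and adaptors 11 were tested and 0 passed. Mavs, the mitochondrial adaptor of RNA sensing, was at 50.1 ± 3.98 CPM in Mertk KO against 52.6 ± 3.34 CPM in Mertk WT, and the kinase Tbk1 at 39.7 ± 4.78 and 39.9 ± 1.54 CPM. Of 64 other effectors 34 were tested, 19 of them above 0, with a median log2 difference of 0.05 against -0.001 over all genes. The 2 most abundant per kb were Ifitm2, at 61.3 ± 7.08 CPM in Mertk KO against 53.5 ± 1.83 CPM in Mertk WT, and the secreted glycoprotein Lgals3bp, at 274 ± 43.5 and 247 ± 39.4 CPM.

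Of 12 brakes on interferon signalling 10 were tested and 0 passed. Socs3, the cytokine-induced suppressor of Jak kinases, was at 26.3 ± 11.9 CPM in Mertk KO against 41.7 ± 13.9 CPM in Mertk WT, with overlapping groups and a log2 difference of -0.67 (SE 0.40, adjusted p = 0.905). Socs1 was near the floor, at 0.283 ± 0.189 CPM in Mertk KO against 0.344 ± 0.23 CPM in Mertk WT. Its groups overlapped and it did not pass the filter in this comparison, so it was not tested. Pias1, which restrains Stat factors, was at 31.1 ± 5.97 against 33.2 ± 3.27 CPM. Irf1, named after its values were seen, was at 6.03 ± 0.803 against 8.15 ± 1.18 CPM (-0.44, SE 0.18, unadjusted p = 0.0274, adjusted p = 0.811). B2m (chromosome 2, 122147686 to 122153083), the light chain of class I histocompatibility molecules, was at 229 to 256 CPM in Mertk KO and 271 to 318 CPM in Mertk WT with no overlap (-0.27, SE 0.08, adjusted p = 0.426), as in 1.94% of all genes in that direction. B2m lies on the chromosome of Mertk and Tyro3, and the part of that position in its values was not tested. Its partner in class I loading, Tapbp, was at 82.8 ± 7.38 and 77.2 ± 15.1 CPM. Among 25 inflammatory NF-kB genes 11 were tested and 0 passed, with Rela at 71.1 ± 6.50 CPM in Mertk KO against 69.7 ± 9.72 CPM in Mertk WT and Nfkbiz at 50.1 ± 26.6 and 68.0 ± 20.6 CPM.

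Irf1 and Socs3 also differed in mean between the sets. In Bai1 Tg neg Irf1 was at 15.7 ± 4.95 CPM and Socs3 at 71.2 ± 22.2 CPM (18.1 ± 1.69 and 78.8 ± 19.8 CPM without library 4), and neither difference from Mertk WT passed the threshold by edgeR (Irf1 -0.93, adjusted p = 0.164; Socs3 -0.77, adjusted p = 0.556). For Irf1 it passed when the library labelled Bai1 Tg neg 4 was left out (-1.14, adjusted p = 0.0137), in DESeq2, and in the fit with no filter (adjusted p = 0.0452). For Socs3 it stayed short of the threshold by edgeR without that library (-0.91, adjusted p = 0.422). Between Bai1 Tg pos and Bai1 Tg neg without that library, Socs3 differed by -0.64 (adjusted p = 0.988 by edgeR, 0.214 by DESeq2 and 0.00061 with no filter). Cd68, a lysosomal marker of macrophages, fell in Mertk WT against Bai1 Tg neg (6.14 ± 1.40 against 13.3 ± 2.62 CPM, edgeR adjusted p = 0.0263). The rest of its list did not follow it. Csf1r, the other macrophage marker tested, was at 648.5 ± 34.2 CPM in Mertk WT against 617.8 ± 14.5 CPM in Bai1 Tg neg. Of the 19 macrophage markers, 7 had 0 counts in Bai1 Tg neg and 0 did in Mertk WT. Rom1, a rod disc protein, rose (219 ± 25.7 against 152 ± 14.7 CPM, edgeR adjusted p = 0.0265). The part of these markers in the values above was not tested. The Cd68 call was lost without Mertk WT 3 or Bai1 Tg neg 1, 2 or 3, and the Rom1 call without Mertk WT 3 or Bai1 Tg neg 1, 2 or 4, the adjusted p reaching 0.121 for each.

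Library by library, the 6 genes averaging at least 1 CPM were loosely related. After each group's mean was subtracted, Pearson's r between pairs of them ran from 0.61 (Irf9 and Stat2) and 0.60 (Ifit3 and Ifitm3) down to -0.27 (Irf7 and Irf9), over 15 libraries that differ in depth and were normalized together. Their mean standardised log2 CPM was highest in Mertk KO 4 (0.952), Mertk KO 1 (0.871) and Mertk WT 4 (0.821) and lowest in Bai1 Tg neg 3 (-0.937). Mertk KO 1 to 4 were at 0.871, 0.37, -0.435 and 0.952 and Mertk WT 1 to 4 at 0.16, -0.669, -0.387 and 0.821. The groups overlapped, and their difference on this scale was not tested. The genes most like this mean over the 15 libraries were Nle1 (r = 0.943), Lgals3bp (0.884), Tspan10 (0.832), Hyal1 (0.826) and Coro7 (0.806). After group means were subtracted they were Nle1 (0.955), Psmg4 (0.892), Ranbp6 (0.873), Lgals3bp (0.860) and Tmem18 (0.852). These are descriptions picked as the highest of all tested genes.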

How the data were processed

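The authors deposited 1 table of raw counts per gene. STAR and GRCm38 are the aligner and build in the submitters' processing notes. Per the file headers, fragments were counted with featureCounts 1.5.0 over exons without a strand option, and the sources used here do not give the annotation release. Libraries were poly-A selected with the TruSeq RNA kit, per the labels' protocols. Ensembl identifiers gave symbols for 45143 genes, which hold 99.91% of counts.

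CPM used TMM factors over all 15 libraries. Each comparison was fitted on its own libraries with edgeR 4.0.16 in R 4.3.3 (TMM, filterByExpr, robust quasi-likelihood F test, two-sided) and Benjamini-Hochberg adjustment over all genes tested, with a threshold of 0.05. Alternatives used DESeq2 1.42.0, limma-voom 3.58.1, RLE factors, no filter, a replicate block, all 15 libraries, covariates (tag number, rod level) and leaving out each library. On simulated counts for the Mertk comparison (13222 genes), 71.9% of genes changed by 1 on the log2 scale were recovered. Copies were searched with blastn 2.17.0 (at least 95% identity over 150 bases) and overlaps with bedtools 2.31.1. No 2 libraries of a group were duplicates (lowest chi-square per degree of freedom 5.28).

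The genes and lists were chosen with earlier results of these data known. Named genes are the 9, Mertk, Adgrb1, Tyro3, Axl, Gas6, the 2 most abundant genes per kb of each list (markers: only where a result turns on them), list genes past the threshold, and the 5 genes most like the mean pattern by each measure. Irf1 in the Mertk comparison, Socs1, Ifnb1, Ifna1, Ptprc, Aif1, Cx3cr1, C1qa and Itgam fall outside this rule. So do 8 effectors of the Bai1 comparison and relatives of Ifit3, Ifitm3 and Oasl2. All of these were picked with their values in view. Some genes of these lists are not reported here and are left out of the counts.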

Additional observations from a re-analysis of the deposited data

Results flagged for a closer look

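In 27 sets of values (each of the 9 genes in the 3 groups of 4 libraries), 3 held a library far from the rest of its group. For normally distributed values chance alone gives about 1 in 20. Low counts need not follow that distribution, and the sets share libraries, so that rate is only a guide here. Ifit1 stood at 4.38 CPM in Mertk WT 4, where the other 3 Mertk WT libraries were at 0.2 to 0.538 CPM. Ifit1 also stood at 2.56 CPM in Bai1 Tg neg 1, with 0 to 0.237 CPM in the other 3 libraries of that group. Ifitm3 was at 2.33 CPM in the same library, Bai1 Tg neg 1, against 1.098 to 1.24 CPM in the others. The group of 3 Bai1 Tg pos libraries was not examined in this way.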

How the results depend on the processing

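Of 301 refits of the log2 differences of the 9 genes, 272 kept their sign and their side of the threshold, 1 (Bst2 in Mertk KO, no filter on low counts) passed it, and 28 turned sign; the cause was not tested. The count of these genes past the threshold moved from 0 to 1 in that refit alone. All 72 group means under other scalings stayed within 1 SD. In the Mertk comparison the sign turned for Ifit1 with limma-voom weights (0.47), with the tag number as covariate (0.42) and with the replicate block (0.38), and for Ifitm3 with the block (-0.019) and with the rod level (-0.11). In the Bai1 comparison it turned with limma-voom weights for Irf7 (-0.079) and Bst2 (-0.094). Leaving out 1 library gave ranges across 0 in the Mertk comparison for Irf7 (-0.043 to 0.24), Irf9 (-0.11 to 0.14), Ifit1 (-0.73 to 1.37), Ifit3 (-0.034 to 0.19) and Ifitm3 (-0.30 to 0.30). It did so in the Bai1 comparison for Irf7 (-0.57 to 0.31), Irf9 (-0.22 to 0.046), Bst2 (-0.19 to 0.42) and Ifitm3 (-0.13 to 0.53), and between the control sets for Irf9 (-0.10 to 0.077), Stat2 (-0.001 to 0.16) and Ifit3 (-0.04 to 0.14).

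The count over all genes moved from 30 to 74 with DESeq2 and 69 with no filter in the Mertk comparison (16 to 31 with 1 library left out, 16 without Mertk KO 4). In the Bai1 comparison it moved from 2 to 21 with DESeq2, 85 with no filter, and 0 both with all 15 libraries and with limma-voom (0 to 54 with 1 library left out, 0 without Bai1 Tg neg 3, 1 without Bai1 Tg neg 1, 5 without Bai1 Tg neg 4, Bai1 Tg pos 1 or Bai1 Tg pos 2, and 54 without Bai1 Tg pos 3). Between the control sets it moved from 58 to 221 with DESeq2 and 138 with no filter (13 to 89 with 1 library left out, 13, 15 and 28 without Bai1 Tg neg 1, 2 and 4, and 88 and 89 without Mertk WT 1 and 4). Replicate numbers shared between groups did not pair the libraries throughout. For libraries of the same number, deviations from the group means correlated by -0.114 to 0.236 in the Mertk comparison. The range was -0.004 to 0.015 in the Bai1 comparison and -0.038 to 0.083 between the control sets. Mertk KO 3 and 4 correlated best with the Mertk WT library of their own number (0.151 and 0.236), and Mertk KO 1 and 2 did not. Between the control sets this held for replicate 1 alone (0.083). Without Bai1 Tg neg 4, refits added after the data were seen gave 25 (DESeq2) and 95 (no filter) in the Bai1 comparison and 213 and 118 between the control sets. The filter on low counts, which the DESeq2 refits used, then kept 13562 genes in the Bai1 comparison and 13710 between the control sets. With the replicate block, 4 genes passed in the Bai1 comparison and 106 between the control sets, and the 9 genes gave 0 in each comparison. For Isg15, Ifit1 and Oasl2, depth limits what could be detected.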
